A study of Arabidopsis thaliana with 6 samples.

Results

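A set of 121 genes was nearly absent from Arabidopsis thaliana ovules of plants with insertions in the PRP8 genes. Its members were chosen by their measured counts. They had at least 5 counts in each of the 3 wild type libraries, and their mean CPM (counts scaled to a library total of 1000000) over the 3 libraries of the other group was at most 10% of the wild type mean. Of 33977 genes in the count table, 19103 nuclear genes had enough wild type counts to be eligible, and 134 of them met the ratio (0.701%). After 13 genes had been left out by identifier, 121 remained. The values that chose the members are the same values described below, so a member's low level in the second group is a description and not a finding, and no test of it is offered as support.

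Wild type ovules were compared with ovules of plants written as PRP8Aa prp8bb. Read as allele notation, these plants are heterozygous for a T-DNA insertion in PRP8A and homozygous for a T-DNA insertion in PRP8B. The labels describe these ovules as mixed, with PRP8A;prp8b and prp8a;prp8b ovules in each sample, so each library of this group averages over both. The insertion lines are not named in the labels. Both groups came from 6-week-old plants in days of 16 h light, with ovules dissected from flowers of stage 13 to 14, when the embryo sac is complete, and each had 3 biological replicates.

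PRP8 is the large core protein of the spliceosome, where it lies at the catalytic centre that removes introns, and Arabidopsis has 2 copies of its gene. An ovule holds the embryo sac (egg cell, central cell, synergids and antipodal cells) inside maternal integuments, whose innermost layer, the endothelium, makes the pigment precursors of the seed coat. Embryo sac cells are known for many families of small secreted cysteine-rich proteins, which serve in pollen tube attraction and sperm activation. Because the tissue is a mixture, fewer cells of a type and less RNA per cell cannot be told apart in any value below.

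The libraries held 8497702 to 12644525 gene counts, so 1 count stood for 0.0791 to 0.118 CPM. PRP8A had 1139 to 1245 CPM in wild type and 836.6 to 953.5 CPM in the other group. PRP8B had 35.9 to 39.8 CPM in wild type and 37.4 to 44.1 CPM in the other group. The 9 exon bins at the 3′ end of PRP8B (stretches into which annotated exons are divided, 25 in all) held 27.8% to 37.8% of its bin counts in wild type and 32.0%, 6.71% and 18.1% in replicates 1, 2 and 3 of the other group. Replicate 1 of that group therefore lay within the wild type range, unlike replicates 2 and 3. Since the insertion lines are not named, it is not known whether these 9 bins lie beyond an insertion. What the share says of a library's genotype was not tested, and the group is called the libraries labelled mutant throughout. In wild type replicate 1, 77.6% of nonzero counts were even numbers, against 47.7% to 48.6% elsewhere, and among the members' own counts there 96.7% were even. Its exon bin counts summed to 7361474, fewer than its 8497702 gene counts. In every other library the bin sum (18706217 to 23086207) was above the gene counts (11261844 to 12644525). Whether each fragment was counted 2 times in wild type replicate 1 was not tested. Its printed counts, the minimum of 5 and the intervals on pooled counts may therefore rest on fewer fragments than the counts show. With its counts halved, an alternative chosen after seeing the data, edgeR's quasi-likelihood test called 597 genes lower in place of 539 (2.79% of all genes tested), and 73 members in place of 71. Mitochondrial genes took 14.5% of counts in replicate 2 labelled mutant and 2.41% to 6.51% in the others. All 7 listed ovule markers (STK, INO, BEL1, ANT, SHP1, SHP2 and ATS) were eligible and summed to 365.2 to 431.7 CPM in wild type and 288.6 to 365.7 in the libraries labelled mutant. Summed levels of 8 pollen and pollen tube markers were 399.5 to 441.5 CPM against 287.5 to 938.1 CPM. For 7 leaf markers the sums were 6354 to 6630 CPM against 5345 to 5934, and for 7 carpel markers 34.7 to 39.7 against 49.3 to 55.6. Such sums rest mostly on the most abundant genes. As a percent of wild type, eligible genes ran from 61.7% (STK) to 118.4% (ANT) in the ovule list and from 37.3% (RBCS2B) to 97.8% (CAB1) in the leaf list. The range was 82.9% (IND) to 157.4% (SPT) in the carpel list and 113.6% (ANX2) to 465.8% (PPME1) in the pollen list. Among the stamen markers, AP3 had 17.7 to 22.1 CPM in wild type against 7.27 to 14.2, and PI 1.05 to 1.41 against 2.57 to 3.24. Of 18 early seed genes, 6 were at 0 in every library and 2 were eligible, AGL62 at 54.1% of wild type and WOX9 at 191.4%. PHE1, PHE2, MINI3, YUC10 and IKU2 had at most 8 counts in any wild type library and 0 in every library labelled mutant. Other genes of the list went the other way at counts as low. AT2S1 had 0, 1 and 0 counts in wild type against 0, 2 and 7, and OLEO1 had 0, 1 and 0 against 0, 8 and 2. AT2S4 and CRA1 had 1 count each, in replicate 2 labelled mutant alone, and AT2S2 had 0, 1 and 2 counts against 0, 0 and 1. On the same stamen and tapetum list, MS1 was at 0 except for 0.0803 CPM in wild type replicate 3. AMS had 0, 1 and 2 counts in wild type against 0, 2 and 3, and SPL had 0, 1 and 4 against 0, 2 and 8. The part of these other tissues in the members' values was not tested.

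The members were genes of low level. Per kilobase of exon length, their median wild type level was 2.06 CPM, against 10.5 CPM over all eligible genes. Without the division by length the median wild type mean was 2.03 CPM, and 102 of the 121 reached 1 CPM, 15 reached 5 CPM and 6 reached 10 CPM. The median member stood at 4.65% of wild type in the libraries labelled mutant, where the median eligible gene stood at 94.2%. Summed over the members, wild type replicates 1, 2 and 3 had 456.6, 539.2 and 506.6 CPM, and replicates 1, 2 and 3 labelled mutant had 38.3, 16.3 and 29.2 CPM. Without the 5 members of highest wild type level, the sums were 287.8, 279.5 and 282.2 CPM against 20.7, 8.33 and 15.3 CPM. The wild type libraries were thus close to each other in the sum, while replicate 2 labelled mutant, which had the highest mitochondrial share, had the lowest sum in its group.

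**Figure D1:**
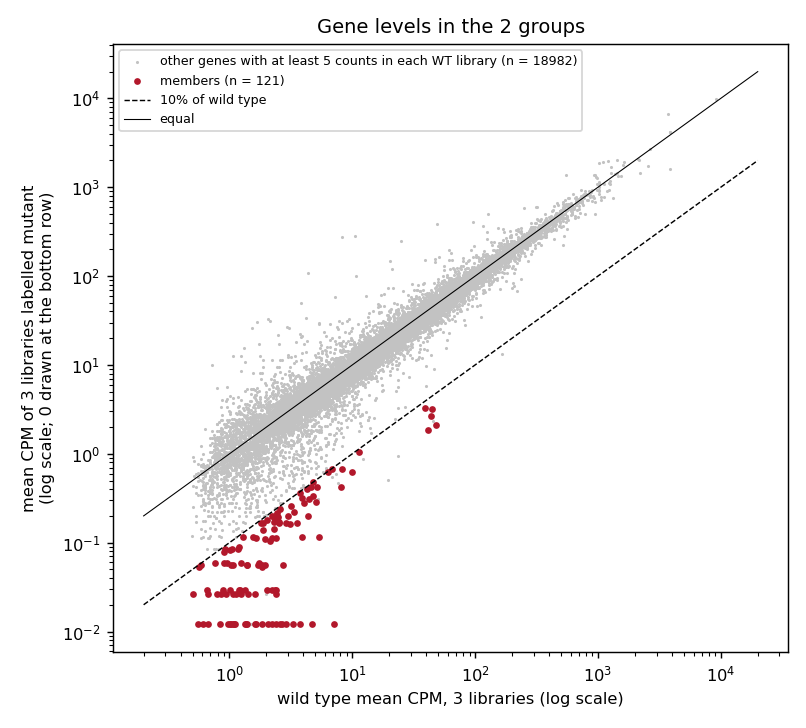
Mean CPM in the 3 libraries labelled mutant (vertical, log scale, 0 drawn at the bottom row) against mean CPM in the 3 wild type libraries (horizontal, log scale) for 121 members (red) and the other eligible genes (grey). The dashed line marks 10% of wild type, and 5 members stand apart at wild type levels of 39.4 to 48.3 CPM, while the median member lies at 2.03 CPM.

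In all 121 members every library labelled mutant lay below every wild type library, a separation that 16.3% of eligible genes also showed in this direction and that the rule nearly fixes. In 38 members the highest library labelled mutant was at most 10% of the lowest wild type library. No count was seen in any library labelled mutant for 26 members, a state shared by 0.141% of eligible genes (27 of 19103). A further 54 members had 1 to 5 counts over these 3 libraries, 31 had 6 to 20 and 10 had more than 20. At 3 counts over 35184736, the limit that a count of 0 allows is 0.0853 CPM, which covers counting error only. Counting error also limits how firmly a member lies under 10%: the upper end of the exact 95% interval of the pooled ratio was under 10% in 30 of the 121 members.

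Replicate 1 labelled mutant, whose PRP8B share resembled wild type, held counts for 78 members, replicate 2 for 47 and replicate 3 for 71. Among the 95 members with any count in the group, the highest library was replicate 1 in 45, replicate 3 in 39 and replicate 2 in 11. Without replicate 1 labelled mutant, 160 genes met the rule, and 116 of the 121 members were among them. The mirror rule, with wild type at most 10% of the libraries labelled mutant, was met by 63 of 19157 eligible genes (0.329%).

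The highest wild type levels belonged to 5 genes of metabolism and cell wall. By level per kilobase of exon, they were also the first 5 members, from 31.5 CPM per kilobase for NIT2 to 57.4 for AT4G15750. NIT2 (AT3G44300, TAIR10 chromosome 3, 15983199 to 15985535, plus strand), a nitrilase that can release the auxin indole-3-acetic acid from its nitrile, had 738, 147 and 576 counts across wild type replicates 1, 2 and 3, against 29, 25 and 21 counts in the corresponding replicates labelled mutant. In CPM these were 86.8, 11.8 and 46.2 against 2.29, 2.22 and 1.86. Its wild type libraries spread widely, while those labelled mutant were nearly equal.

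AT5G64120 (chromosome 5, 25659257 to 25661007, minus strand) encodes a class III peroxidase, a secreted enzyme family that cross-links or loosens wall polymers. It had 44.5, 45 and 43.0 CPM in wild type, against 4.51, 1.42 and 3.73 CPM in the libraries labelled mutant (44.2 ± 1.04 against 3.22 ± 1.61 CPM, SD, n = 3). Here the wild type libraries were nearly equal, and the group labelled mutant varied more. AT1G56100 (chromosome 1, 20980369 to 20984115, minus strand) and AT4G15750 (chromosome 4, 8967519 to 8968615, minus strand) belong to the family of invertase and pectin methylesterase inhibitors. AT1G56100 had 16.5, 56.6 and 45.3 CPM in wild type against 4.51, 1.95 and 3.46 CPM. AT4G15750 had 10.6, 75.8 and 45.7 CPM against 3.56, 1.6 and 2.75 CPM. Wild type replicate 1 was the lowest wild type library for both. The same order was seen in AT5G47350 (chromosome 5, 19212665 to 19214453, plus strand), an alpha/beta hydrolase with 10.4, 70.4 and 44.1 CPM in wild type, against 2.69, 0.798 and 2.13 CPM in the libraries labelled mutant.

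**Figure D2:**
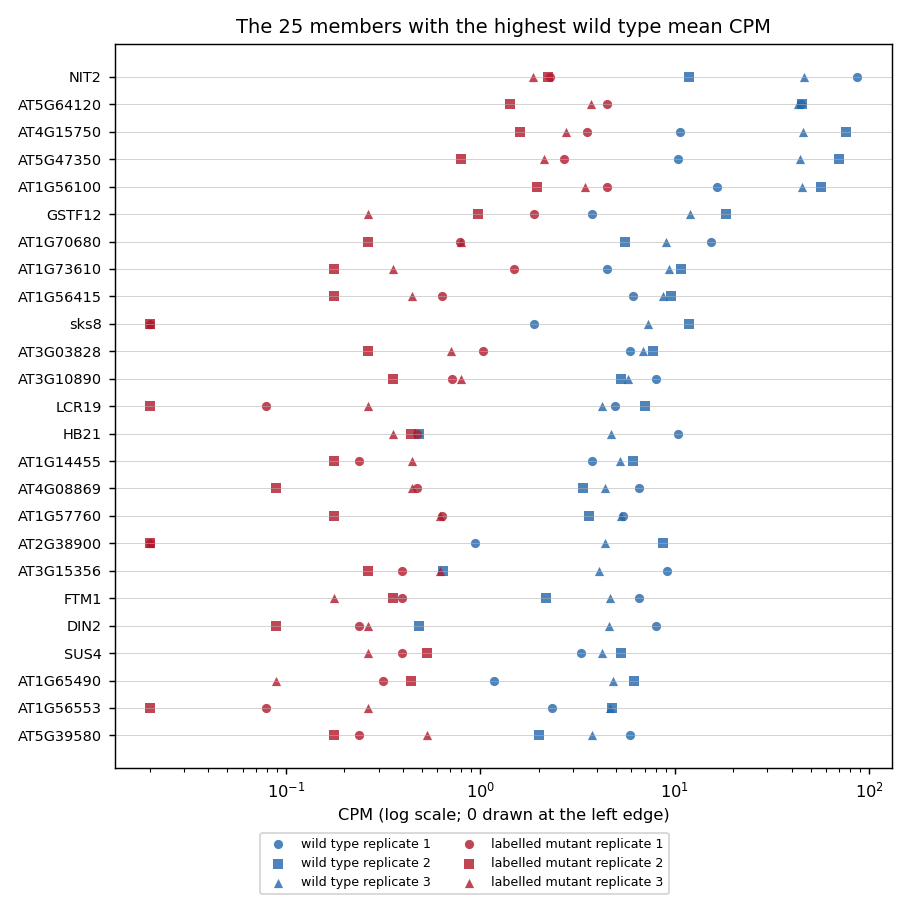
CPM (log scale, 0 drawn at the left edge) of the 25 members with the highest wild type mean, 1 row per gene and 1 point per library, with 3 wild type libraries in blue and 3 labelled mutant in red, and the marker shape giving the replicate. The wild type points lie to the right of the red points in every row, and in HB21 they nearly touch, with 0.482 CPM in wild type replicate 2 and 0.475 CPM in replicate 1 labelled mutant.

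Genes grouped here as small cysteine-rich proteins made up the largest list, which joins several families. By their RefSeq product names, 33 of the 121 members (27.3%) were defensin-like, ECA1 or DUF784, self-incompatibility S1, thionin, RALF, membrane lipoprotein or other cysteine-rich genes. Such names are carried by 175 of 19103 eligible genes. The lipoprotein names do not themselves say cysteine-rich. This joint list was drawn up after the members were known, so its size beside narrower lists follows in part from what was joined. Its members summed to 76.5, 77.2 and 72.5 CPM across wild type replicates 1, 2 and 3, against 5.06, 1.6 and 5.42 CPM in the libraries labelled mutant. The wild type libraries thus differed little in this sum.

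Defensin-like genes encode secreted peptides folded by disulfide bridges, a family that includes the pollen tube attractants of the synergids. They gave 11 members of 44 eligible, and 6 more of the 44 met the ratio but were among the genes left out by identifier. LCR19 (AT4G30074, chromosome 4, 14699737 to 14700599, minus strand) had 42, 87 and 53 counts in wild type, against 1, 0 and 3 in the libraries labelled mutant. AT1G56553 had 20, 59 and 58 counts against 1, 0 and 3. LCR12 had 8, 24 and 14 counts in wild type and was at 0 in all libraries labelled mutant, where the exact 95% interval of the pooled ratio reached up to 7.92% of wild type. The 11 members ranged from 0% to 9.07% of wild type, with LCR54 the highest.

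ECA1 proteins are the family of the EC1 peptides, which the egg cell secretes to activate sperm, and DUF784 is a domain name shared by some of them. Of 38 eligible ECA1 or DUF784 genes, 6 were members. AT1G57760 had 46, 45 and 66 counts in wild type, against 8, 2 and 7 in the libraries labelled mutant. AT3G01323 had 8, 52 and 24 counts against 0, 1 and 0, so that it rested on wild type replicates 2 and 3. AT3G30383, AT5G34881, AT5G34885 and AT3G01331 stood at 6.61% to 9.55% of wild type. The 5 EC1 genes themselves were not members and stood at 25% (EC1.4) to 55.0% (EC1.2) of wild type.

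Self-incompatibility S1 proteins are small secreted proteins named after the stigma determinant of poppy (Papaver rhoeas). They gave 4 members of 27 eligible. AT2G06090 had 18, 32 and 36 counts in wild type, against 2, 1 and 3 in the libraries labelled mutant, and AT1G51240 had 16, 22 and 15 against 1, 0 and 0. AT5G12060 (8.76%) and AT5G27238 (2.19%) were the others. RALFL28 encodes a rapid alkalinization factor, a peptide of a family that signals through receptor kinases related to FERONIA, and had 16, 16 and 33 counts against 3, 0 and 1. SCRL10 is named after SCR, the pollen ligand of self-incompatibility in Brassica, and had 12, 13 and 9 counts against 1, 0 and 0. Among 3 members annotated only as cysteine-rich proteins, AT3G04545 had 20, 34 and 26 counts in wild type and 0 in every library labelled mutant. The thionin family members AT2G20597 and AT1G58245 were at 4.64% and 5.24% of wild type.

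Cell wall genes formed the next block. Genes named for pectin, expansin or their inhibitors gave 13 members of 196 eligible. Members of this block summed to 44.1, 155.8 and 113.3 CPM across wild type replicates 1, 2 and 3, against 9.09, 3.99 and 6.66 CPM in the libraries labelled mutant. Most of that sum came from AT4G15750 and AT1G56100. Unlike the cysteine-rich genes, this block was lower in wild type replicate 1 than in the other wild type libraries.

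Expansins loosen the wall without cutting it, and all 3 expansin members were at 0 in every library labelled mutant. EXPA25 had 8, 65 and 45 counts in wild type (interval of the pooled ratio up to 3.01% of wild type), EXPA22 had 6, 36 and 24 (up to 5.46%) and EXPB4 had 12, 15 and 7 (up to 10.9%, so past the limit of the rule). Among the 20 eligible expansin genes, these 3 were the only ones under 50% of wild type, and the median was 102.2%. EXP26 and EXPA23 were not eligible, and their counts are given with the neighbouring members below. Among pectin lyase-like genes, whose enzymes cut pectin, AT5G44840 had 6, 32 and 19 counts against 0 in all libraries labelled mutant, and 4 of 62 eligible genes were members. The inhibitor family gave 6 members of 58 eligible, among them AT1G11593 with 26, 44 and 50 counts against 4, 1 and 1, and AT1G56620 with 20, 32 and 34 counts against 3, 2 and 1.

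The multicopper oxidase-like gene sks8 (AT1G21850, chromosome 1, 7667803 to 7670530, minus strand) had the highest wild type level of the 26 members at 0. It had 16, 148 and 91 counts in wild type, against none in the libraries labelled mutant, with the interval of the pooled ratio reaching up to 1.38% of wild type. Peroxidases gave 6 members of 27 eligible. After AT5G64120 came AT5G39580 with 50, 25 and 47 counts against 3, 2 and 6, and PRX52, known for lignin formation, with 24, 18 and 30 counts against 0 in each library. EXT4, an extensin of the hydroxyproline-rich wall proteins, had 33, 19 and 26 counts against 4, 1 and 2. AT4G33840, of glycosyl hydrolase family 10, had 8, 61 and 24 counts against 0.

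Names holding protease, peptidase, aspartyl or subtilase gave 5 members of 375 eligible (1.33%), where 0.701% of all eligible genes met the ratio. Subtilases are secreted serine proteases, and AT5G58840 had 18, 59 and 55 counts in wild type, against 0 in the libraries labelled mutant (interval of the pooled ratio up to 2.69% of wild type), while AT1G66220 had 32, 14 and 29 counts against 1, 0 and 0. The serine carboxypeptidase-like gene scpl21 had 8, 33 and 32 counts against 0. AT2G38900, an inhibitor of serine proteases, had 8, 108 and 55 counts against 0 (up to 2.07%). KTI1, a Kunitz trypsin inhibitor, went the other way among the wild type libraries, with 36, 5 and 29 counts against 2, 2 and 1.

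Flavonoid and sugar genes were fewer. GSTF12 (AT5G17220, chromosome 5, 5658416 to 5659661, plus strand), a glutathione S-transferase needed to bring flavonoid pigments or their precursors to the vacuole, had 3.77, 18.3 and 12 CPM in wild type, against 1.90, 0.975 and 0.266 CPM in the libraries labelled mutant. It was the only member among 13 listed endothelium and proanthocyanidin genes, of which 3 more met the ratio and were left out by identifier. The 13 genes together had 104.1, 334.5 and 238.3 CPM across wild type replicates 1, 2 and 3, against 80.5, 53.0 and 75.1 CPM in the libraries labelled mutant, and 5 of the 13 passed as lower in edgeR's quasi-likelihood test, against 2.79% of all genes tested. Of these 5, 3 had met the ratio, and of the 9 genes that had not, TT2 and TTG2 passed as lower. UF3GT, a flavonoid glycosyltransferase, had 6, 48 and 33 counts against 0, 0 and 1. AT1G03940, of an acyltransferase family that includes enzymes acting on anthocyanins, had 8, 42 and 22 counts against 0, 0 and 1.

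SUS4, a sucrose synthase that splits sucrose for metabolism, had 28, 66 and 53 counts in wild type, against 5, 6 and 3 in the libraries labelled mutant. DIN2, a beta-glucosidase induced in darkness, had 68, 6 and 57 counts against 3, 1 and 3. FTM1, a stearoyl-acyl carrier protein desaturase of fatty acid synthesis, had 56, 27 and 58 counts against 5, 4 and 2. Among transporters, the sucrose symporter gene SUC6 had 22, 5 and 14 counts against 0, SUC8 of the same family had 22, 12 and 26 against 3, 0 and 2, and the polyol and monosaccharide transporter gene PMT1 had 6, 8 and 8 against 0. NIP4;2, an aquaporin-related channel known from pollen, had 14, 7 and 11 counts against 1, 0 and 1. The part of pollen in these counts was not tested.

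Lipases of the GDSL family gave 7 members of 60 eligible. AT1G73610 had 38, 134 and 116 counts in wild type, against 19, 2 and 4 in the libraries labelled mutant, so that replicate 1 held most of what remained. Kinase names gave 8 members of 1046 eligible (0.765%), near the 0.701% of all eligible genes that met the ratio. Their wild type means were 0.844 to 1.08 CPM except for NET2B, which interacts with actin rather than phosphorylating proteins and had 42, 10 and 28 counts against 0. RR22, a response regulator of the cytokinin phosphorelay family, had 10, 55 and 39 counts against 0 (interval of the pooled ratio up to 3.43% of wild type). Transcription factor names gave 1 member of 979 eligible genes (0.102%), the homeodomain gene HB21, with 88, 6 and 59 counts against 6, 5 and 4. Its lowest wild type value was 0.482 CPM and its highest value labelled mutant 0.475 CPM, so the groups were barely apart. No member carried a heat shock or F-box name, among 114 and 163 eligible genes. At a share of 0.701%, lists of this size would hold few members, so nothing is read from this absence. The listed central cell, egg cell, synergid, early seed and clock genes gave no member, although 1 synergid and 1 clock gene met the ratio and were left out by identifier. Of these lists only 5, 5, 8, 2 and 12 genes were eligible, and 6 of 15 central cell, 6 of 9 egg cell and 10 of 21 synergid names were matched to the table, so most early seed genes could not be members at any level in the second group. Some genes of these lists that did not meet the rule also passed a test. In edgeR's quasi-likelihood test, against 2.79% of all genes tested as lower and 3.05% as higher, 3 of 5 central cell genes (FWA, FIS2 and MEA), 4 of 5 egg cell genes (all EC1 genes but EC1.2) and 2 of 6 synergid genes passed as lower. Of 11 clock genes tested, 2 passed as lower (CCA1 and RVE8) and 5 as higher (PRR5, TOC1, GI, LUX and BOA), with PRR5 at 914.1% of wild type. Median levels of the eligible genes, as a percent of wild type, were 34.4% (central cell list), 31.8% (egg cell list), 28.3% (synergid list) and 130.5% (clock list).

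The remaining members were of mixed kinds. AT1G70680, related to the caleosins, calcium-binding proteins of oil bodies, had 130, 69 and 113 counts in wild type, against 10, 3 and 9. CYP71A12, a cytochrome P450 of indolic defence compounds, had 8, 31 and 19 counts against 2, 0 and 2. It was the only member among 121 eligible P450 genes (0.826%), near the 0.701% of all eligible genes that met the ratio. YLS9, a gene associated with senescence and defence, had 18, 9 and 6 counts against 0. CEP2, a cysteine protease of a group known from cell death, had 28, 8 and 24 counts against 1, 0 and 1. Uncharacterized, hypothetical or transmembrane names gave 7 members of 1192 eligible (0.587%), also near that share. Of these AT1G56415 had 52, 119 and 109 counts against 8, 2 and 5, AT3G03828 had 50, 96 and 86 against 13, 3 and 8, and AT1G14455 had 32, 76 and 65 against 3, 2 and 5. Putative membrane lipoproteins gave 4 members of 29 eligible, of which AT1G64107 and AT2G04925 were at 0 in all libraries labelled mutant, and AT4G08869 had 56, 42 and 55 counts against 6, 1 and 5.

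**Figure D3:**
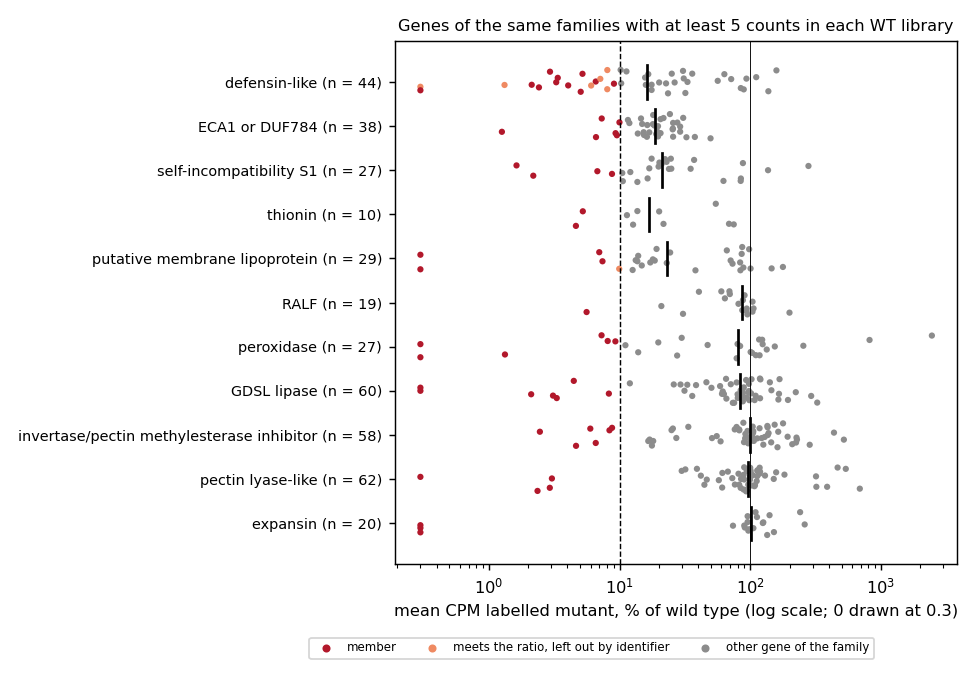
Mean CPM of the libraries labelled mutant as a percent of wild type (log scale, 0 drawn at 0.3) for every eligible gene of 11 families, with members in red, genes left out by identifier in orange and other genes in grey. Black bars are family medians over all genes drawn, members included. The dashed line is 10% and the solid line 100%. The medians lie between 16.2% and 23.0% in the upper 5 families and between 80.0% and 102.2% in the lower 6.

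The families of the members differed in their median level. These medians, and the counts under 50%, are over all eligible genes of a family. They include the members and the genes left out by identifier, which the rule placed at or below 10%, so they are partly fixed by that choice. In most of the cysteine-rich families the median gene was low, with RALF as an exception. The family median was 16.2% of wild type over 44 defensin-like genes, 18.8% over 38 ECA1 or DUF784 genes, 16.9% over 10 thionins, 21.0% over 27 S1 genes, 23.0% over 29 putative membrane lipoproteins and 86.9% over 19 RALF genes. Under 50% of wild type were 17 of the 29 lipoproteins and 4 of the 19 RALF genes. All 38 genes with ECA1 or DUF784 in their product name were under 50%, a state of 4.30% of eligible genes. This list by product name does not hold every EC1 gene, since the eligible EC1.2, at 55.0% of wild type, is not among the 38. In edgeR's quasi-likelihood test over 19297 genes, 2.79% of genes passed as lower and 3.05% as higher. Among genes of these families that did not meet the rule, 12 of 29 defensin-like genes tested passed as lower and 4 as higher, and 23 of 29 ECA1 or DUF784 genes passed as lower. The same was found for 9 of 20 S1 genes, 8 of 21 lipoproteins, 4 of 7 thionins and 4 of 19 RALF genes. Members and genes left out by identifier were removed from these counts of genes that passed the test, but not from the medians.

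In the wall and lipase families most genes did not share the low level. Medians were 80.0% over 27 peroxidases, 82.8% over 60 GDSL lipases, 96.5% over 62 pectin lyase-like genes and 99.6% over 58 invertase or pectin methylesterase inhibitors. Of their genes that were not members, 1 of 23 peroxidases tested passed as lower and 3 as higher, 4 of 54 GDSL lipases as lower and 7 as higher, and 7 of 56 inhibitors as lower and 8 as higher. Of 58 pectin lyase-like genes, 3 passed as lower and 8 as higher. Of the 19 expansins tested that were not members, 4 passed as higher and the others did not pass. The 11 family lists shown were partly chosen after the values were seen, and the difference between families was not tested.

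Within wild type the members varied more than genes of like level. Their median coefficient of variation over the 3 wild type libraries was 40.9%, against 20.9% over the 6353 eligible genes with wild type means of 0.664 to 9.97 CPM (median 3.99 CPM, so above the members' median). In 29 members (24.0%) wild type replicate 1 was at least 2 times replicate 2, against 7.79% of genes of like level, and in another 29 (24.0%) replicate 2 was at least 2 times replicate 1, against 7.16%. Wild type replicate 3 lay between the other replicates in 25 of the first 29 and in 26 of the second 29. For all eligible genes split the same way these shares were 82.0% and 83.1%. The rule divided by the wild type mean, which a single high wild type library raises, so these values are not independent of how the members were chosen and are given as a description.

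Genes higher in wild type replicate 1 included NIT2, HB21, DIN2, KTI1 and the legume lectin gene AT3G15356 (78, 8 and 51 counts in wild type against 5, 3 and 7). This group summed to 211.8, 43.4 and 118.1 CPM across wild type replicates 1, 2 and 3, against 8.07, 4.97 and 6.66 CPM in the libraries labelled mutant. Genes higher in wild type replicate 2 included AT4G15750, AT5G47350, AT1G56100, GSTF12, sks8, AT2G38900, EXPA25, EXPA22, RR22 and UF3GT. They summed to 72.0, 329.0 and 222.5 CPM in wild type, against 15.9, 6.38 and 10.4 CPM in the libraries labelled mutant. The endothelium and proanthocyanidin list had the same order among the wild type libraries as this second group. The remaining 63 members were within 2-fold, and 22 of the 33 cysteine-rich genes were among them, with 4 in the first group and 7 in the second. Wild type replicate 1 is also the library with mostly even counts and the highest mitochondrial share of its group (6.51%), and the part of the library in these patterns was not tested.

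**Figure D4:**
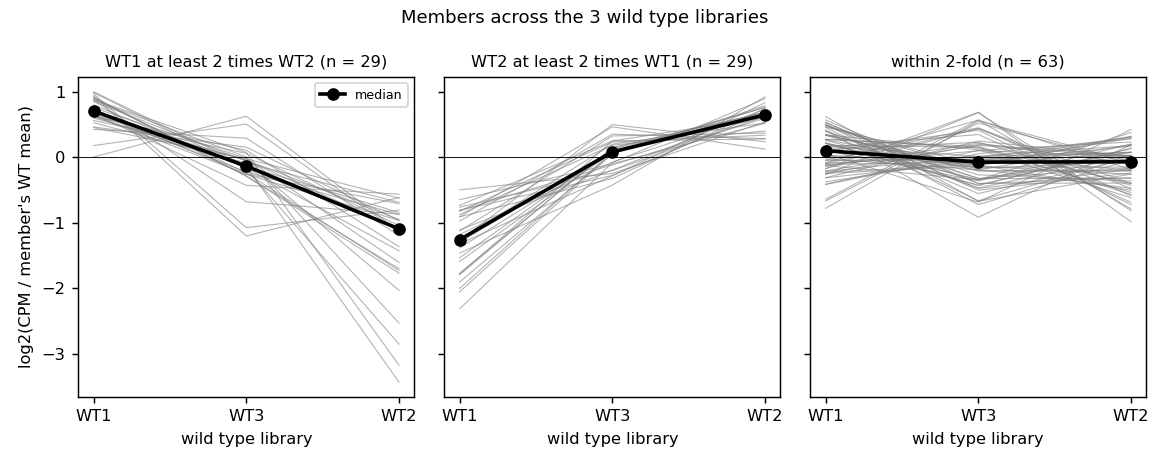
Level of each member in the 3 wild type libraries as log2 of CPM over the member's wild type mean, for 29 members with replicate 1 at least 2 times replicate 2 (left), 29 with the reverse (middle) and 63 within 2-fold (right), drawn in the order replicate 1, 3, 2. Grey lines are genes and black lines medians, the outer points of the left and middle panels follow from how the panels were split, and replicate 3 lay between the others in 25 and 26 of the 29 genes.

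The members had shorter coding sequences than eligible genes. Of the 121, 120 were protein coding and 1 was a noncoding RNA (AT2G01422, with 8, 53 and 37 counts in wild type, against 1, 1 and 0 in the libraries labelled mutant). Their median coding length was 834 bases, against 1185 over eligible genes and 969 over eligible genes of like level. A coding length of at most 400 bases was found in 38 of 120 members (31.7%), against 7.33% and 13.9%. A single exon block was found in 24.8% of members, against 16.0% of eligible genes and 27.6% of genes of like level, so that members and genes of like level hardly differed in this share. Members with 2 exon blocks made up 27.3%, against 14.2% and 19.4%. An annotated gene overlapped on the opposite strand in 18 members (14.9%), against 28.3% of eligible genes. Members lay on all 5 chromosomes, with 34, 21, 22, 18 and 26 on chromosomes 1 to 5.

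Neighbouring members, with no more than 2 other genes between them, formed 7 pairs. Such pairs were not counted among other eligible genes, so whether 7 is many for a set of this size was not tested. Both members of a pair belonged to the same family in 5 of them by product name: the ECA1 genes AT3G01331 and AT3G01323, the GDSL lipases AT3G43550 and AT3G43570, the DUF784 genes AT5G34881 and AT5G34885, the expansins EXPA22 and EXPA25, and the peroxidases AT5G64100 and AT5G64120. The others were the uncharacterized genes AT1G65490 and AT1G65500, and SCRL10 beside AT4G15750. AT3G43550 and AT3G43570 are 93.8% identical over their gene bodies, so the split of reads between them is uncertain. In the expansin pair, which spans 9443 bases, EXP26 lies between the members with 2, 24 and 15 counts in wild type and 0 in every library labelled mutant, and it missed the rule through its 2 counts in wild type replicate 1. EXPA23, the other gene between them, had 4, 17 and 19 counts against 6, 4 and 2. Between the peroxidases, AT5G64110 had 0, 20 and 11 counts against 2, 0 and 1, and it too missed the minimum count in wild type replicate 1.

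The upstream sequences of 4 members are shown because they carry the letters known as the site of the synergid regulator MYB98 (GTAACNT, searched on both strands). They are AT5G03810 and UF3GT, the members with 2 sites, and the neighbouring DUF784 genes AT5G34881 and AT5G34885, whose upstream stretches are 79.9% identical. Each is the 250 bases before the annotated gene start in RefSeq TAIR10.1, read in the direction of the gene, with the sites in capitals. AT5G03810 is chr5:1015346-1015595 (minus strand), UF3GT is chr5:21938397-21938646 (minus strand), AT5G34881 is chr5:13197354-13197603 (plus strand) and AT5G34885 is chr5:13201225-13201474 (plus strand).
AT5G03810: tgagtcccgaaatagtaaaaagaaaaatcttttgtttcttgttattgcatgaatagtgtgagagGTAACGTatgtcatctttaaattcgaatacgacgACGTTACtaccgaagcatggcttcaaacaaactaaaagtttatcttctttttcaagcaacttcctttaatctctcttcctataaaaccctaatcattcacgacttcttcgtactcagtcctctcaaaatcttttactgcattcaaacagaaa
UF3GT: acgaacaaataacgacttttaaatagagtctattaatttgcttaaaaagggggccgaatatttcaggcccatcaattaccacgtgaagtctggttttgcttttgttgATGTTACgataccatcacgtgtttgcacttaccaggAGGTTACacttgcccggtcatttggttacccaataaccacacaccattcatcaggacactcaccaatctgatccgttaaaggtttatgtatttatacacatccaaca
AT5G34881: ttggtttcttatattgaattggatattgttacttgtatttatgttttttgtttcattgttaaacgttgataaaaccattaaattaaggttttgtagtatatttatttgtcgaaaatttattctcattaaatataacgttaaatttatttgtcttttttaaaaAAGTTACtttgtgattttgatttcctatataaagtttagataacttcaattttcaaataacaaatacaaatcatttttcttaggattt
AT5G34885: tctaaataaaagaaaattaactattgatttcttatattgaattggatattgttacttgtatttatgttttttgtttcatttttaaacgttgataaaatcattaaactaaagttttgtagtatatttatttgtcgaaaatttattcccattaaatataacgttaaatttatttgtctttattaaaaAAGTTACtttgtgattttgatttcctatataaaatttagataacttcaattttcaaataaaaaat
In AT5G03810 the sites lie 186 and 152 bases before the start, in UF3GT 143 and 107 bases, and in the DUF784 neighbours 88 and 65 bases. Both neighbours carry the same 7 letters on the opposite strand. The windows of the DUF784 genes came with 42, 19 and 31 counts in wild type against 3, 1 and 3 for AT5G34881, and with 22, 18 and 17 against 3, 0 and 3 for AT5G34885. AT5G03810, a GDSL lipase, had 6, 6 and 17 counts against 1, 0 and 0.

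Over the whole set this motif was not more frequent than elsewhere. In the window from 250 bases before to 50 after the start, GTAACNT occurred in 14 of 121 members (11.6%), in 13.0% of eligible genes and in 12.9% of all nuclear genes. Of the 33 cysteine-rich members 4 had it (12.1%), and of the other 88 members 10 (11.4%). The evening element AAAATATCT occurred in 3.31% of members and 2.99% of eligible genes, and the G-box CACGTG in 7.44% and 8.72%. The TATA box TATAAA occurred in 66.1% of members, 50.6% of eligible genes and 50.9% of all nuclear genes, and the heat shock element core GAANNTTC in 16.5%, 11.4% and 11.5%. All motifs were searched on both strands, none of them contains another, a match is a run of letters and not a shown binding site, and none of these shares was tested.

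Counts by exon bin described parts of the members. They come from the same reads, so they describe the members and add no independent evidence. Members with bins of their own numbered 120, with 498 bins, and their summed bin counts, scaled to a total of 1000000, were 421.2, 475.0 and 436.8 across wild type replicates 1, 2 and 3, against 34.2, 16.3 and 26 in the libraries labelled mutant. Of the 208 bins with at least 20 wild type counts, from 96 genes (55 with 2 or more such bins), 188 were at most 10% of wild type and 207 at most 20%. The highest bin (chromosome 3, 15180522 to 15180688, in SUS4) stood at 21.1%, with 1, 12 and 7 counts in wild type against 0, 2 and 2. By the sum over all bins, 113 of the 120 were at most 10% of wild type and the highest stood at 13.2%.

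The deposited intron table names no sample, so its values were given to no group. It lists 304 introns of 92 members, and 89.5% of them had no spliced read, with 5 the highest number. For eligible genes of like level the share was 22.7% of 19223 introns, with a median of 3 spliced reads, and for all eligible genes 7.97%, with a median of 22. No intron of a member reached 10 spliced reads, so retention could not be described for the members from this table. Members had up to 738 counts in a wild type library (NIT2). Like level was set on wild type counts. If the table holds mainly reads of libraries labelled mutant, the contrast in spliced reads restates the rule, and which libraries it holds was not tested.

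In the authors' deposited table of gene differences, 114 of the 121 members appear, all with a negative log2 fold change, and 3.74% of eligible genes appear there as lower. The median of these log2 fold changes in the authors' deposited table was -4.37, from -8.72 to -3.25. Of the 100 lowest values among the 1543 genes in the authors' deposited table, 62 belonged to members. The 7 members not found there had wild type means of 0.503 to 0.903 CPM. In edgeR's quasi-likelihood test 74 members passed the filter on low counts and 71 of them passed as lower, against 2.79% of all genes tested. A member passes that filter through its wild type counts alone, so nothing is read from this count. The 3 that passed the filter but not the test were AT4G15750, GSTF12 and AT2G38900, whose wild type libraries differed by 4.87 to 9.22 times between replicates 2 and 1.

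The limit of 10% had no gap around it. The nearest members inside were AT1G57760 at 9.99%, AT3G03828 at 9.78% and AT3G10890 at 9.77%. The nearest eligible genes outside were LCR45 at 10.21%, AT3G21710 at 10.3% and LCR86 at 10.32%, and LCR45 and LCR86 are defensin-like genes, as 11 of the members are. With the listed genes left out, 133 genes lay at or below 11%, 181 at or below 15% and 251 at or below 20%.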

How the data were processed

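Stranded libraries were made from total ovule RNA after depletion of ribosomal RNA, per the labels. The submitters' processing notes name Trimmomatic, STAR, featureCounts in Subread 1.6.0, DESeq2 and TAIR10. Per the file headers, raw counts were deposited for 33977 genes of annotation release 37, and for exon bins, with fragments assigned by strand setting 1. Whether this setting suits the stranded kit was not checked on reads. Across 19812 genes these counts followed the spliced reads of the intron table (rank correlation 0.869 to 0.882 over the libraries). The deposited intron table gives spliced reads as counts and retention as a fraction, and names no sample. The authors' deposited table of gene differences holds log2 fold changes with their adjusted p-values.

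CPM is a count over its column total. Intervals are exact 95% intervals on pooled counts, and they cover counting error only. The whole table was fitted with edgeR 4.0.16 in R 4.3.3 (glmQLFit and glmQLFTest, robust, TMM, filterByExpr, Benjamini-Hochberg adjusted p under 0.05). DESeq2 1.42.0 was an alternative. The labels do not say whether replicates came from separate plants, so part of the spread may be technical. Within a group, every pair of libraries differed beyond sampling noise, with a chi-square per gene of 5.07 to 89.8. All 121 members have identical coordinates in RefSeq TAIR10.1, which gave names and sequences. Protein sequences were not used here.

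Members, lists and tests were chosen with earlier results of these data known. Named members are the 25 of highest wild type CPM, the 10 highest of those at 0, list members, those nearest the 10% limit, and up to 5 pairs of neighbours. Other members named, and the lists for peroxidases, GDSL lipases, kinases, inhibitors, expansins, pectin lyases, lipoproteins, transporters and the joint cysteine-rich list, were chosen after their values were seen.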

Additional observations from a re-analysis of the deposited data

How the results depend on the processing

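The number of members followed the rule's limits. It was 121 as described, 63 at a limit of 5% of wild type, 251 at 20%, 66 with at least 10 counts in each wild type library, 29 with at least 20, and 38 when the highest library labelled mutant had to be at most 10% of the lowest wild type library. TMM scaling gave 119, group medians 130 (107 shared), totals without organelle genes 120, and at least 10 counts in wild type replicate 1, added after the data were seen, 87. Leaving out 1 library gave 106 to 195 genes, the highest without wild type replicate 1 (105 of the 121 shared).

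The count of genes passing as lower in edgeR was 539, and 181 (without replicate 3 labelled mutant) to 707 when 1 library was left out, with 198 without wild type replicate 3. Members among them numbered 71 of 74 tested. When 1 library was left out they numbered 43 of 106 tested (without replicate 3 labelled mutant) to 85 of 106 tested (without replicate 2 labelled mutant). The DESeq2 Wald test called 113 members and the fit without a filter 107, both of which test all 121 members. Replicate numbers did not pair the samples (correlations of -0.0495, -0.0506 and 0.0937), and the replicate block gave 423 genes and 68 members. These counts of members support nothing, since the rule used the same contrast and fixed the direction. Of 377 refits of the 54 named members with a fitted fold change, 30 moved by over 1.5 times. Keeping gene groups merged by overlap moved the members' mean bin sum in the libraries labelled mutant from 25.5 to 35.6 (bin counts scaled to a total of 1000000). It ranged from 21.1 to 30.1 when 1 library of that group was left out, and in wild type from 429.0 to 455.9. Depth limits the set throughout, since 80 of the 121 members had 5 or fewer counts over the libraries labelled mutant.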
